A study of Homo sapiens with 6 samples.

Results

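The 10 genes described here encode secreted or cell-surface proteases that cut the extracellular matrix, the activators of the plasminogen cascade, and the tissue inhibitors of the matrix proteases. They were taken by gene symbol. The proteases were MMP1, MMP2, MMP3, MMP14, ADAMTS1, PLAU and PLAT, and the inhibitors were TIMP1, TIMP2 and TIMP3. All 10 of 10 symbols were found on the array, among 16922 named genes in all, and they were read by 11 of its 24526 probes, since TIMP2 had 2. Of the 10 genes, 9 were above background on all 6 arrays, and MMP14 was above background on 2 of 6 and was not tested.

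Matrix metalloproteinases are zinc enzymes made as inactive precursors, and together they can cleave collagens, fibronectin, laminins and most other matrix proteins. The TIMP proteins bind the active site of these enzymes and block it. The plasminogen activators encoded by PLAU and PLAT turn plasminogen into plasmin, a broad protease that removes fibrin and opens some metalloproteinase precursors. Fibroblasts are a well-known source of these enzymes and of TIMPs, and matrix is also remodelled when cells leave an epithelium during gastrulation.

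The cells were HES3, 1 established line of human embryonic stem cells, which had been grown on gamma-irradiated human Ortec feeder cells with FGF2. Both groups were freed of feeders with a strainer, which per the labels typically took away 90% of them, held for 2 days on fibronectin in stem cell medium, and then kept for 3 days in RPMI medium with B-27. One group received 50 ng/ml Activin A, a ligand of the Nodal receptors, and the other received Activin A with 50 ng/ml bone morphogenetic protein 4 (BMP4), with 3 arrays each. In the labels the treatment text lists both ligands under all samples, and the groups were therefore read from titles and source names; untreated cells and BMP4 alone were not analysed here.

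Each array detected 9348 to 10460 probes, and normalized values correlated at 0.985 to 0.990 within a treatment and 0.926 to 0.945 between treatments. The 3 Activin A arrays shared chip 1, Activin A + BMP4 replicates 1 and 2 lay on chip 2 and replicate 3 lay on chip 3, so each chip held 1 treatment. Any difference between chip 1 and the others cannot be told apart from the treatment. Of the labelled cell identity, 8 pluripotency genes were tested. With BMP4, 5 were lower, POU5F1 and NANOG among them, 1 was higher and 2 were not past the threshold. Of 9 tested endoderm and mesendoderm markers, 8 were higher, SOX17 among them. GATA4, also among these 8, was above background only on the Activin A + BMP4 arrays and had to come out higher. Over all 8186 tested genes, 18.1% were lower and 17.6% higher. The feeders' cell type is not named in the labels, so markers of fibroblasts, a common feeder cell, were read. Of 26 listed, 24 were tested: 19 were lower with BMP4 and 5 (COL5A2, CCL2, FBLN1, FBLN2 and COL5A1) were higher, with a median log2 difference of -1.12. COL5A1 and FBLN1 lost their calls after median scaling. With median scaling or the authors' processed values 3 markers were called higher. Without the filter on dim probes 4 were, and on leaving out 1 array 4 or 5. The count called lower was 17 with the authors' processed values, without the filter or with the replicate block. It was 17 or 18 on leaving out 1 array. LUM and PRRX2, both called lower, were near the threshold (limma adjusted p = 0.0455 and 0.0430). The other FBLN1 probes differed by -0.05 (limma adjusted p = 0.755) and 0.86. POSTN was not detected on any array. The summed fibroblast marker level, on the linear scale of the normalized values, was 103110 to 117559 with Activin A and 63004.9 to 65048.8 with BMP4. The part of feeder cells in the results that follow was not tested, and in bulk RNA fewer cells of a type and less RNA per cell cannot be told apart.

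The comparison asked what adding BMP4 to Activin A did to these transcripts. With BMP4, 8 of the 9 tested genes were lower and 0 were higher: the collagenase MMP1, the stromelysin MMP3, the gelatinase MMP2, both plasminogen activators and all 3 TIMPs. Only ADAMTS1 among the tested genes did not pass. A gene passed at a limma adjusted p under 0.05, and by that rule 35.8% of all 8186 tested genes passed, 18.1% as lower and 17.6% as higher. The falls reached 5.44-fold for PLAT, 4.25-fold for TIMP3, 3.25-fold for TIMP1 and 3.03-fold for MMP3. At least 2-fold lower were 7 of the 9, against 5.40% of all tested genes. PLAU and TIMP2 lay near this cut and did not reach it in every alternative. The log2 difference of PLAU was -0.94 without Activin A replicate 3, and that of TIMP2 was -0.74 with the mean over its probes. The median log2 difference over the 9 genes was -1.36, over the 6 tested proteases -1.19 and over the TIMPs -1.70, beside 0.0019 over all tested genes. For the 8 called genes no array of one treatment reached into the range of the other, which held for 50.2% of all tested genes in either direction and 25.6% downwards.

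**Figure D1:**
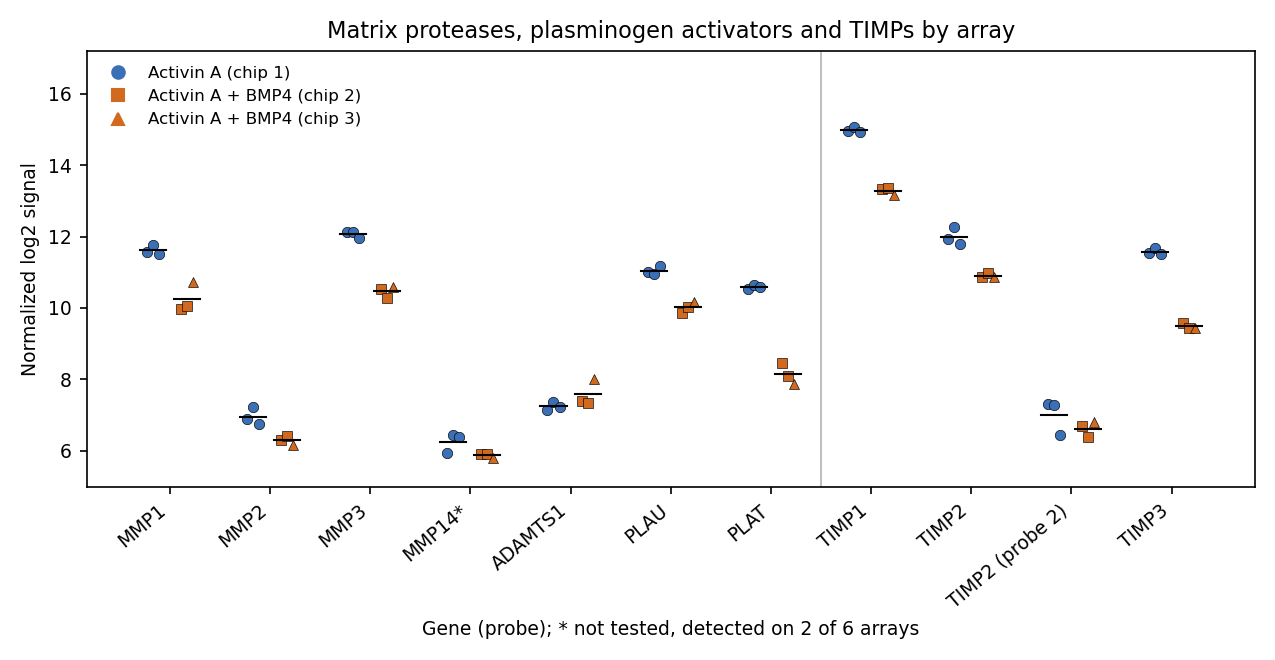
Normalized log2 signal of each of the 11 probes on each of the 6 arrays, with circles for Activin A and squares or triangles for Activin A + BMP4 by chip; black lines are means. Proteases stand to the left of the grey line and TIMPs to the right, and levels of different probes cannot be set against each other. The Activin A + BMP4 arrays lie below every Activin A array for MMP1, MMP2, MMP3, PLAU, PLAT, TIMP1, TIMP3 and the brighter TIMP2 probe.

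MMP1, which encodes the interstitial collagenase that cuts fibrillar collagen, had deposited signals of 3058.3 to 3448.5 with Activin A and of 947.7, 963.3 and 1710.7 with BMP4. On the normalized log2 scale its arrays read 11.57, 11.75 and 11.51 with Activin A and 9.98, 10.05 and 10.73 with BMP4. All BMP4 arrays were lower, but the replicate on chip 3 stood 0.72 above the mean of the pair on chip 2, a gap that only 2.19% of tested probes matched in size. The log2 difference was -1.36 ± 0.20 (SE, n = 3 per treatment), a 2.56-fold fall (adjusted p = 0.00102). Against the Activin A mean the chip 2 arrays differed by -1.60 and the chip 3 array by -0.88.

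MMP3 encodes stromelysin, which cuts proteoglycans and fibronectin and can open the MMP1 precursor. Its normalized log2 values were 12.12, 12.13 and 11.95 with Activin A and 10.52, 10.29 and 10.60 with BMP4. The groups lay apart by more than 1 log2 unit, and the chip 3 array was the highest of the BMP4 arrays, as for MMP1. MMP3 fell by 1.60 ± 0.12 (SE) on the log2 scale, or 3.03-fold (adjusted p = 2.92e-05). Its sequence is close to that of MMP10, and cross-hybridisation between the pair was not tested.

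MMP2, the gelatinase that cuts denatured collagen and basement membrane collagen, was a dim probe, with deposited signals of 90.2 to 122.8 with Activin A and 59.3 to 65.3 with BMP4. Its normalized log2 values were 6.90, 7.22 and 6.76 with Activin A and 6.30, 6.42 and 6.16 with BMP4. These groups did not overlap, though the gap between the closest arrays was smaller than the range within Activin A. MMP2 fell by 0.67 ± 0.14 (SE) on the log2 scale, or 1.59-fold (adjusted p = 0.00703). With the normexp background correction in place of neqc the fall was 0.40 and stayed called.

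MMP14 encodes the membrane-bound metalloproteinase that opens the MMP2 precursor at the cell surface with TIMP2 as an adaptor. Its probe was above background on Activin A replicates 2 and 3 and on no BMP4 array. Its normalized log2 values were 5.95, 6.44 and 6.38 with Activin A and 5.90, 5.92 and 5.79 with BMP4. The lowest Activin A array lay close to the highest BMP4 array. No fold is given, since Activin A replicate 1 was not above background either, and in a fit without the filter on dim probes MMP14 did not pass (adjusted p = 0.136).

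PLAT, which encodes tissue-type plasminogen activator, showed the largest fall of the set. Its deposited signals were 1503.8 to 1654.6 with Activin A and 237.2 to 316.3 with BMP4. The normalized log2 values were 10.53, 10.63 and 10.60 with Activin A and 8.45, 8.11 and 7.86 with BMP4. Activin A arrays were tightly grouped and the BMP4 arrays were spread more widely, all far below them. PLAT differed by -2.44 ± 0.15 (SE), a 5.44-fold fall (adjusted p = 1.37e-05), which ranked 17 of 8186 tested genes counted from the lowest log2 difference.

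PLAU, which encodes the urokinase-type activator that acts at the cell surface on its receptor PLAUR, read 11.01, 10.94 and 11.18 with Activin A and 9.87, 10.02 and 10.16 with BMP4. The groups were well apart. PLAU fell by 1.03 ± 0.12 (SE) on the log2 scale, or 2.04-fold (adjusted p = 2.99e-04).

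ADAMTS1, a secreted protease with thrombospondin motifs that cuts proteoglycans such as versican, was the tested gene that did not fall. Its normalized log2 values were 7.14, 7.38 and 7.24 with Activin A and 7.40, 7.35 and 8.02 with BMP4. The treatments overlapped, and the chip 3 array alone stood clearly above the rest, 0.65 above the chip 2 mean (3.26% of tested probes had a gap as large). The log2 difference was 0.34 ± 0.18 (SE), with a 95% interval from -0.08 to 0.76 (adjusted p = 0.189). Without Activin A + BMP4 replicate 3 it was 0.12, still not past the threshold.

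Among the inhibitors, TIMP1, which blocks most soluble metalloproteinases, had deposited signals of 31937.9 to 33494 with Activin A and of 9093.3 to 10230.9 with BMP4. Its normalized log2 values were 14.96, 15.06 and 14.93 with Activin A and 13.34, 13.36 and 13.15 with BMP4. Replicates lay close together in both treatments, far from the other group. TIMP1 fell by 1.70 ± 0.11 (SE) on the log2 scale, or 3.25-fold (adjusted p = 1.40e-05).

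TIMP3, the inhibitor that binds to the matrix and also blocks ADAMTS enzymes and ADAM17, read 11.54, 11.67 and 11.52 with Activin A and 9.58, 9.44 and 9.44 with BMP4. No array came near the other treatment. TIMP3 fell by 2.09 ± 0.10 (SE) on the log2 scale, or 4.25-fold (adjusted p = 6.45e-06), rank 47 of 8186 from the lowest.

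TIMP2, which inhibits MMP2 and also joins it to MMP14, read 11.93, 12.26 and 11.78 with Activin A and 10.88, 10.99 and 10.86 with BMP4 by its brighter probe. This probe separated the treatments, with a fall of 1.09 ± 0.14 (SE) on the log2 scale, or 2.12-fold (adjusted p = 4.74e-04). The dimmer probe read 7.33, 7.27 and 6.44 with Activin A and 6.69, 6.37 and 6.80 with BMP4. There the arrays overlapped, and the difference of -0.39 ± 0.24 (SE) did not pass (adjusted p = 0.234). The mean over both probes fell by 0.74, which passed.

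**Figure D2:**
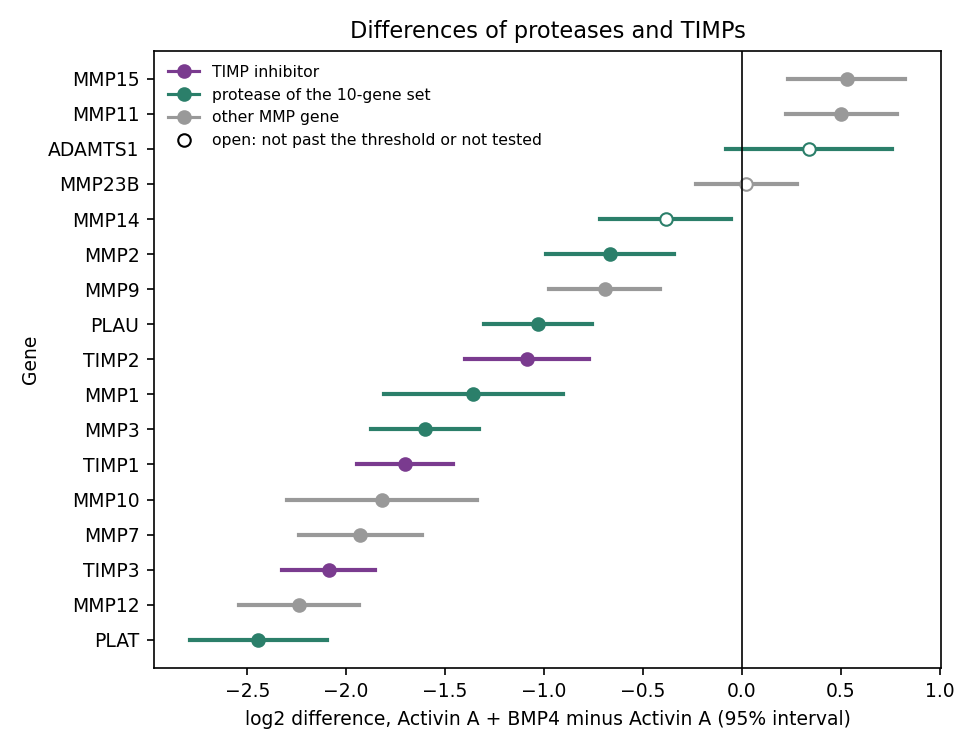
Log2 difference, Activin A + BMP4 minus Activin A, with its 95% interval from limma for the 10 genes and the 7 other tested MMP genes, 3 arrays per treatment; open points did not pass or, for MMP14, were not tested. TIMP1 (-1.70) and TIMP3 (-2.09) lie among the proteases PLAT (-2.44), MMP3 (-1.60) and MMP1 (-1.36), and MMP11 and MMP15 lie above 0. Values for MMP7, MMP10, MMP12 and MMP14 are fitted values of probes not above background with BMP4.

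The start regions of TIMP1 and TIMP3 are shown because both inhibitors fell on every BMP4 array, and because 4 of the 10 genes (MMP14, PLAU, TIMP1 and TIMP3) had an entry in the RefSeq promoter table of GRCh38.p14. Each window runs 5′ to 3′ on the gene's strand, from 250 bases before the start to 50 after it, and capitals mark the GC box GGGCGG or its reverse complement CCGCCC, searched on both strands. TIMP1 lies at chrX:47582186-47582485 on the plus strand and TIMP3 at chr22:32801455-32801754 on the plus strand.
TIMP1: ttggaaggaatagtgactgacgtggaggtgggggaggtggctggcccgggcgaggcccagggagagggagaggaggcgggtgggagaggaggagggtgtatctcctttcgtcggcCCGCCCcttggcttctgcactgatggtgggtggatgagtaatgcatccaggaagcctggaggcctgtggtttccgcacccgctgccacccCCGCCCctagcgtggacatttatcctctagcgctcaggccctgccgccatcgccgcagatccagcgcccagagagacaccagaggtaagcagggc
TIMP3: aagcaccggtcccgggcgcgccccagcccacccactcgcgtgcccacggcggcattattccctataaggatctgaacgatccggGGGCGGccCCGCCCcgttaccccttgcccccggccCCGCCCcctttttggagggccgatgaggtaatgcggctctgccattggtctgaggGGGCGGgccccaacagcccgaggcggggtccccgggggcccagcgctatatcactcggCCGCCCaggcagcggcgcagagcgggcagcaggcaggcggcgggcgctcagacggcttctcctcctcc
The TIMP1 window held 2 GC boxes and 65.0% G or C, and the TIMP3 window held 5 and 72.7%. GC boxes occurred in 45.0% of 35116 promoter windows of the table. Neither TIMP window held TATAAA (11.5% of all windows) or the AP-1 letters TGANTCA (7.71% of all windows), each searched on both strands. The search took any base at N and exact letters elsewhere. Near matches such as tgagtaa in the TIMP1 window were therefore not counted. Binding was not measured.

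Protease and inhibitor were then compared within each array, as the difference of their log2 values, for 5 pairs with known inhibition. Only the change of this ratio between treatments can be read. MMP1 and TIMP1 gave -3.39, -3.31 and -3.42 with Activin A and -3.36, -3.31 and -2.42 with BMP4. The chip 2 arrays lay with the Activin A arrays and the chip 3 array stood alone above them. The mean ratio moved by 0.35 (exact permutation test, two-sided, p = 0.2, adjusted over 5 pairs 0.25), by 0.22 with cyclic loess and by 0.0219 without Activin A + BMP4 replicate 3. In this design 3 arrays against 3 cannot give a p below 0.1.

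The MMP3 to TIMP1 ratio averaged -2.91 ± 0.069 (SD, n = 3) with Activin A and -2.81 ± 0.26 (SD, n = 3) with BMP4, so its shift of 0.10 was within the replicate spread (exact permutation test, p = 0.6, adjusted p = 0.6). This shift turned to -0.0369 without Activin A + BMP4 replicate 3 and to -0.0255 with cyclic loess. Since the test cannot pass 0.05 here, it does not show that the ratios were alike.

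The ratio of MMP2 to TIMP2 was -5.03, -5.05 and -5.02 with Activin A and -4.58, -4.56 and -4.70 with BMP4. The Activin A arrays were nearly identical and every BMP4 array was higher. The shift was 0.42 (exact permutation test, two-sided, p = 0.1, adjusted p = 0.167), at the smallest p this design can give, and it was 0.66 with normexp. It rests on the brighter TIMP2 probe. With the dimmer probe the shift was -0.27 and with the mean of both probes 0.0718, and the arrays of the treatments then overlapped, so no direction of this ratio is read. The ratio of MMP14 to TIMP2 is not read, because MMP14 was not above background with BMP4.

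The ADAMTS1 to TIMP3 ratio shifted most, by 2.43 on the log2 scale. It was -4.40, -4.30 and -4.28 with Activin A and -2.18, -2.10 and -1.42 with BMP4. No array of one treatment came near the other, and the chip 3 array was the highest (exact permutation test, two-sided, p = 0.1, adjusted p = 0.167). Without that array the shift was 2.21.

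**Figure D3:**
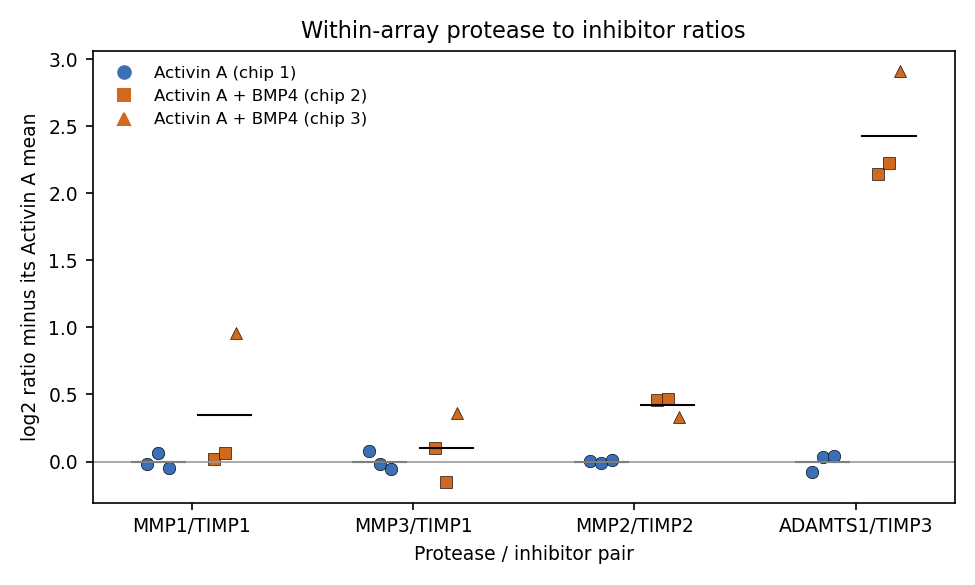
Within-array log2 ratio of protease to inhibitor for the 4 pairs with both genes tested (TIMP2 by its brighter probe), each minus its mean over the 3 Activin A arrays, with black lines for the means of each treatment. The ADAMTS1 to TIMP3 ratio lies 2.43 higher on average with BMP4, while for MMP1 to TIMP1 only the chip 3 array (triangle) stands above the others.

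MMP1 and MMP3 lie side by side on chromosome 11 in a cluster of 9 metalloproteinase genes, in the RefSeq order MMP7, MMP20, MMP27, MMP8, MMP10, MMP1, MMP3, MMP12 and MMP13. Of these, 5 were tested and all 5 were lower with BMP4, MMP1 and MMP3 by values measured on both sides. MMP20, MMP27, MMP8 and MMP13 were not detected on any array. MMP12, the macrophage elastase, was above background with Activin A alone and was at least 3.18-fold lower (2.10-fold with normexp). MMP7, the small epithelial metalloproteinase matrilysin, and MMP10, a second stromelysin, were likewise below detection on the BMP4 arrays; MMP7 was at least 1.50-fold lower (1.26-fold with normexp) and MMP10 at least 1.66-fold lower (1.35-fold with normexp). These 3 genes passed the detection filter through the Activin A arrays alone, so they had to come out lower, and the count is a description. Of 14 MMP genes elsewhere in the genome 5 were tested: MMP2 and MMP9 were lower and MMP11 and MMP15 higher. MMP23B did not pass (log2 difference 0.02, limma adjusted p = 0.893). The median log2 difference of these 5 genes was 0.02.

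**Figure D4:**
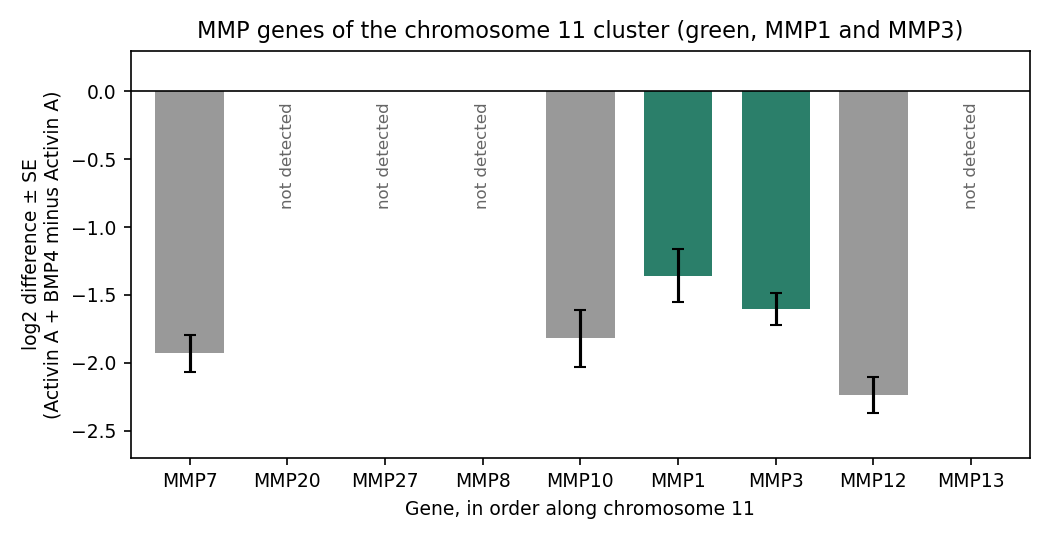
Log2 difference ± SE, Activin A + BMP4 minus Activin A, for the 9 MMP genes of the chromosome 11 cluster in their order along the chromosome, from 3 arrays per treatment. The 5 genes that were tested lie between -2.24 (MMP12) and -1.36 (MMP1), and the bars of MMP7, MMP10 and MMP12 are fitted values against arrays not above background.

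Of the cluster, the start regions of MMP7 and MMP10 are shown as 2 windows of genes that fell beside MMP1 and MMP3, which are named only. Capitals mark the AP-1 letters TGANTCA, the motif bound by Jun and Fos factors, and the TATA box TATAAA. Both genes lie on the minus strand, MMP7 at chr11:102530698-102530997 and MMP10 at chr11:102780579-102780878 (GRCh38.p14, RefSeq).
MMP7: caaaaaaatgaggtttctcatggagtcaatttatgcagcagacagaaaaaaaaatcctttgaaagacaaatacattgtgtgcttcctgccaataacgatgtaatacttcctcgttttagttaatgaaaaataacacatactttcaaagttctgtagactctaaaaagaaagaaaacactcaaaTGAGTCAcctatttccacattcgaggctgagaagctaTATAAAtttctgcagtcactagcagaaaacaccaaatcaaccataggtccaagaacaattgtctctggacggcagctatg
MMP10: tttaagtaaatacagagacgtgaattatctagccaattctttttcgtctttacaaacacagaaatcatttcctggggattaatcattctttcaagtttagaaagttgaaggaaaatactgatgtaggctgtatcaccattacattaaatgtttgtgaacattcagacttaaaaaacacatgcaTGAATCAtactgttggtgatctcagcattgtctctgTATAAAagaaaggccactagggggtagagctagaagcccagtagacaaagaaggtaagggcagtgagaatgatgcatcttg
The TGANTCA match began 67 bases before the start in both, as TGAGTCA in MMP7 and TGAATCA in MMP10. TATAAA began 30 bases before the start in MMP7 and 31 in MMP10. The windows held 35.7% and 36.3% G or C, and 0 GC boxes. The MMP20 window, of a gene not detected here, also held TGAATCA and TATAAA. A match describes the letters, and binding was not measured.

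The wider matrix protease system was read from lists of 89 other genes. Of these, 38 were tested, of which 20 passed as lower and 9 as higher while 9 did not pass, and the median log2 difference was -0.52. Of the 20, 4 genes (MMP7, MMP10, MMP12 and ADAMTS6) had no BMP4 array above background and had to come out lower. Among the 31 detected on all 6 arrays, 16 passed as lower and 8 as higher, and the median was -0.46. In all, 40 were not detected on any array. Besides the cluster genes, MMP9, the second gelatinase, fell by 0.69 ± 0.12 (SE) on the log2 scale (adjusted p = 0.00290). MMP15, a membrane-type metalloproteinase, was higher by 0.53 ± 0.13 and MMP11, stromelysin-3, by 0.50 ± 0.12 (SE; adjusted p = 0.0131 and 0.0129).

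Among ADAMTS genes beside ADAMTS1, 6 of 23 on the array were tested, with 3 lower, 2 higher and 1 not past. ADAMTSL4, a matrix protein of microfibrils without protease activity, fell by 1.03 on its brighter probe and by 1.00 on the other. ADAMTS19 fell by 0.60, and ADAMTS6, below detection on the BMP4 arrays, was at least 1.28-fold lower (1.15-fold with normexp). ADAMTS4, an aggrecanase, and ADAMTS9, another proteoglycan-cutting member, were higher by 0.82 and 0.41 (adjusted p = 0.0318 and 0.0185). The ADAMTS4 call was lost in 6 of 17 alternatives (adjusted p = 0.0528 to 0.0994), among them those without Activin A replicate 1 or 3 or Activin A + BMP4 replicate 1 or 2. The ADAMTS9 call was lost in 3 (0.0542 to 0.0641), among them those without replicate 2 of either treatment.

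Of 12 ADAM genes, some of whose products shed proteins from the cell surface, 6 were tested, with 3 lower, 1 higher and 2 not past. ADAM19 read 12.20, 12.14 and 12.27 with Activin A and 13.66, 13.67 and 13.55 with BMP4. Its groups lay far apart in the direction opposite to MMP1 and the TIMPs, and it was 2.69-fold higher (log2 difference 1.43 ± 0.10 SE, adjusted p = 2.21e-05). ADAM15 fell by 0.86, ADAM23, which lacks protease activity, by 0.69 and ADAM9 by 0.64.

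In the plasminogen system, 6 of 10 genes on the array were tested beside PLAU and PLAT, with 2 higher, 2 lower and 2 not past and a median of 0.01. PLAUR, the urokinase receptor, fell by 0.63 on its brightest probe (adjusted p = 0.00874), and its other probes also passed, with log2 differences of -0.99 and -1.47. ANXA2, a cell-surface receptor of plasminogen and tissue-type activator, fell by 0.46, while its other probes differed by -0.03 and -0.75. SERPINE2, protease nexin-1, which inhibits urokinase and thrombin, read 15.10, 15.14 and 15.29 with Activin A and 15.77, 15.67 and 15.62 with BMP4. It rose by 0.51 ± 0.10 (SE; adjusted p = 0.00554, and 0.0562 with the authors' values). ENO1, a glycolytic enzyme that can bind plasminogen at the cell surface, rose by 0.44 (adjusted p = 0.0105, but 0.0830 after median scaling and 0.0765 from the authors' values).

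Of 13 tested other inhibitors and activators, 8 were lower, 2 higher and 3 not past, with a median of -0.75. CD44, a hyaluronan receptor that can hold MMP9 at the cell surface, fell by 1.39 on its brightest probe, with log2 differences of -0.59 and -1.46 on the others, the latter not above background with BMP4. The cathepsins CTSB, CTSL and CTSK, proteases of the lysosome, were lower, with log2 differences of -1.18, -1.13 and -1.04, though the dimmest of the CTSL probes differed by -0.18 and did not pass (adjusted p = 0.293). PCOLCE2, an enhancer of procollagen C-proteinase, read 8.34, 8.15 and 8.44 with Activin A and 9.82, 10.25 and 10.23 with BMP4. It was the largest rise of the 38 genes, 3.46-fold (log2 difference 1.79 ± 0.15 SE, adjusted p = 4.71e-05). FURIN, which opens the MMP14 precursor, rose by 0.71 (adjusted p = 0.0240), a call that was lost without Activin A replicate 1 or 3, without Activin A + BMP4 replicate 2 or 3 and without the filter (0.0510 to 0.0769). RECK, a membrane-anchored inhibitor named after its values were seen, differed by -0.19 (adjusted p = 0.238), and TIMP4 was detected on 1 array and not tested.

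**Figure D5:**
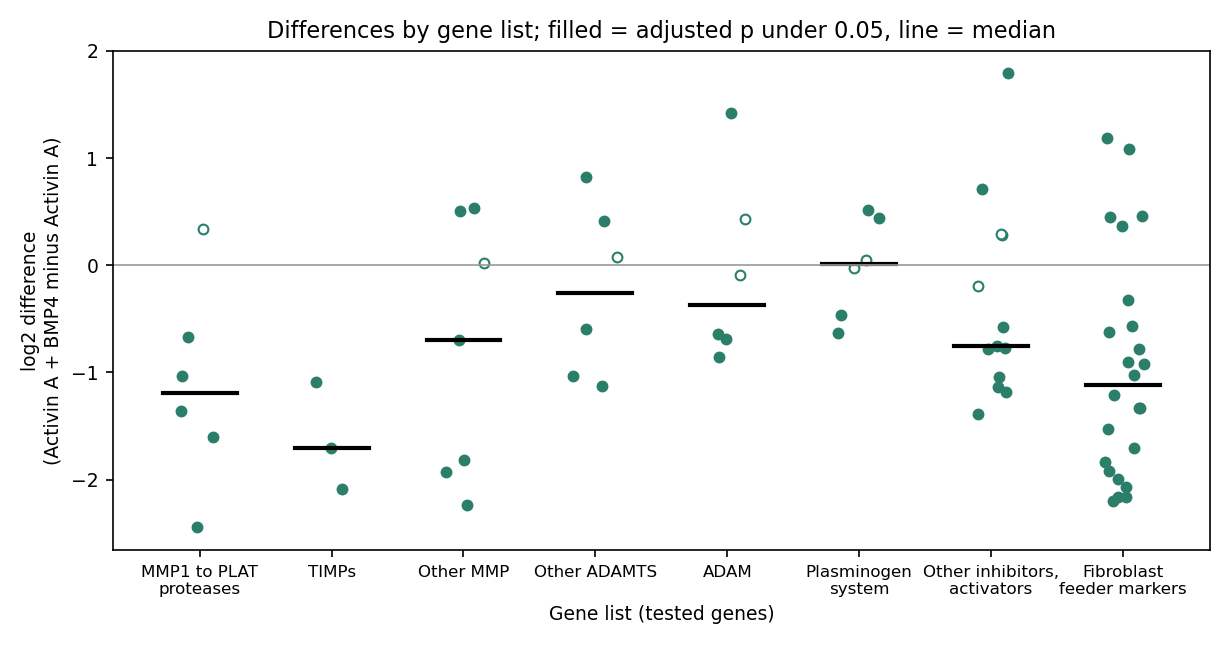
Log2 difference, Activin A + BMP4 minus Activin A, of each tested gene by list; filled points passed an adjusted p of 0.05, open points did not, and lines are medians. The medians are -1.19 for the proteases from MMP1 to PLAT, -1.70 for the TIMPs, 0.01 for the other plasminogen system genes and -1.12 for the fibroblast markers.

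Beside these falls stand those of the fibroblast markers, of which LOX, the lysyl oxidase gene, THY1, a surface glycoprotein gene, and PRRX1, a homeobox gene of mesenchyme, changed most, with log2 differences of -2.20, -2.17 and -2.16. The falls of PLAT and TIMP3 were of similar size, and a shared cell source was not tested. The fibroblast markers did not all fall. Of the 24 tested, 19 were lower, the least being PRRX2 at -0.32. The other 5 were higher, with the largest log2 differences for COL5A2 (1.19) and CCL2 (1.08). Of 10 leukocyte markers, PTPRC, CD163, ITGAM and TYROBP were not detected on any array, and of the 4 tested CD14 was lower and 3 did not pass. Of 10 endothelial markers, PECAM1, CDH5, CLDN5, EMCN, TIE1 and ERG were not detected. Of the 4 endothelial markers tested, VWF and TEK were higher, with log2 differences of 1.00 and 0.92, ESAM was lower, at -0.73, and KDR did not pass, and their part in the results was not tested.

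The genes whose values over the 6 arrays lay nearest to a gene of the set were sought among the 8185 other tested genes, by the root mean square difference of mean-centred log2 values. Nearest to PLAT were APOD, IL13RA2 and COL8A1, at distances of 0.116, 0.116 and 0.119. Nearest to TIMP3 were PPP1R3C at 0.0369, MAOA at 0.0717 and SYTL2 at 0.0719. For TIMP1 they were SRPX at 0.0591, SCG5 at 0.0748 and SLC22A23 at 0.0751, and for MMP3 they were SGK1 at 0.0749, IGFBP5 at 0.0762 and AK4 at 0.0981. All 6 arrays enter this measure, so genes with a like difference between treatments lie near each other by construction.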

How the data were processed

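Biotin-labelled cRNA from total RNA was read on Illumina bead arrays, 3 per treatment, from replicates that the design text terms biological. The authors deposited probe intensity values that were not normalized, per the file headers, with 22.2% to 24.6% of an array's signals below 0. Their detection column, deposited as a score, rose with the signal and was read as 1 minus the detection p-value. The processed table of the authors holds log2 values, centred per probe on an unknown baseline, with array medians of -0.147 to 0.147; they served as an alternative.

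Signals were corrected and quantile-normalized with neqc (offset 16) in limma 3.58.1 under R 4.3.3. Testing required a detection p below 0.01 on 3 or more of the 6 arrays (10116 of 24526 probes, 8186 genes); a gene was represented by its tested probe with the highest mean. Of the probes, 21834 had 1 gene symbol, 2692 none and 0 several, and 21813 were matched to RefSeq. Treatments were compared with lmFit and eBayes, and Benjamini-Hochberg adjusted p-values (over every tested probe) were called at 0.05. Differences take Activin A from Activin A + BMP4. A probe not above background in a treatment has an "at least" fold there, which sets the mean of the bright treatment against the larger, on each dim array, of its own value and the lowest detected one; the same under normexp (offset 50) was added after the data had been seen. Ratios were compared with exact permutation tests. The scripts were tested on simulated data. The number of arrays limits the precision.

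The genes and lists were chosen with earlier results of these data known. Named beyond the 10 genes are, per list, up to 4 rises and 4 falls past the threshold with the largest differences, up to 3 fibroblast markers with the largest change, and the 3 nearest genes of the 4 tested genes that differed most; others are named as chosen later or as parts of a count.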

Additional observations from a re-analysis of the deposited data

How the results depend on the processing

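The same 8 genes were called lower in all 17 alternatives, which covered background correction, normalization, the filter, the replicate and chip blocks, probe choice, variance model and leaving out each array. For 44 of the named genes over the alternatives, 738 comparisons gave 0 reversals and 26 lost calls. The lost calls were in ADAMTS4, ADAMTS9, SERPINE2, ENO1, FURIN, COL5A1 and FBLN1. Other named genes were not followed gene by gene, among them PRRX2 and CD14 (limma adjusted p = 0.0430 and 0.0477). The median log2 difference over the 9 tested genes (-1.36) was -1.47 with median scaling, -1.48 with the authors' values and -1.22 with no filter, which adds MMP14, and -1.62 to -1.22 on leaving out 1 array. The MMP3 to TIMP1 shift of 0.10 reversed to -0.0255 with cyclic loess and to -0.0369 without Activin A + BMP4 replicate 3, and ranged from -0.0369 to 0.222 on leaving out 1 array; the cause was not tested. The MMP2 to TIMP2 shift of 0.42 reversed to -0.27 with the dimmer TIMP2 probe, an alternative chosen after seeing the data. Replicate numbers were not used as a pairing in the main fit. Arrays of equal number had deviations correlating at 0.03, -0.03 and -0.05. With 3 arrays per treatment these values cannot show whether the cultures were paired. A fit with the replicate block called 1369 genes higher and 1358 lower, and the same 8 genes of the set were lower. A random chip block, at a consensus correlation of 0.0149, gave 1407 and 1458. Since each chip held 1 treatment, this block cannot separate chip 1 from Activin A. The median over all tested genes stayed between -0.0287 and 0.00878. Signal over background limits MMP14 and MMP2, whose size under normexp (-0.20 and -0.40) was smaller.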
